A study of Mus musculus with 16 samples.

Results

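The 10 genes described here serve oxygen sensing and growth factor supply, and were taken by symbol from a table of 35682 genes measured in ventricular myocytes of 16 adult mice. Hif1a, Epas1 and Hif3a encode the alpha subunits of the hypoxia-inducible factors (HIF), Arnt encodes their common partner, Egln1, Egln2 and Egln3 encode the prolyl hydroxylases that mark the alpha subunits for breakdown, and Vegfa, Vegfb and Fgf1 encode secreted growth factors. The animals were 8 carriers of the transgene B3AR-Tg, a line named for the beta-3 adrenergic receptor, and 8 wild-type (WT) littermates. All 16 had undergone transverse aortic constriction (TAC), surgery that constricts the aortic arch and puts the left ventricle under pressure overload, and all were studied 9 weeks later. The comparison is therefore between genotypes under pressure overload, and no animal without surgery was analysed here. The labels name neither the promoter nor the species of the transgene, and give no age beyond adult cells. The cells were released by Langendorff perfusion and kept on plates for an hour before RNA extraction, so that mRNA levels are those of isolated, plated cells.

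In cells with ample oxygen the hydroxylases modify prolines of the HIF alpha subunits, the von Hippel-Lindau protein binds the modified protein, and the proteasome removes it. When oxygen falls, the alpha subunits persist, pair with ARNT and bind short DNA elements near genes of glycolysis, angiogenesis and iron handling. Much of this control acts on protein, so the mRNA of a HIF subunit is not a measure of HIF activity. In the heart, cardiac myocytes are a major source of VEGF-A and VEGF-B, which act on receptors of neighbouring endothelial cells.

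The libraries held between 5985335 and 14365864 counts. Levels below are CPM, the count divided by the TMM-scaled library total and given per 1e6, and means are given ± SD over 8 animals. A floor of 3 counts corresponded to between 0.201 and 0.487 CPM. Myocyte genes dominated every library: the 10 myocyte markers summed to between 73583 and 98290 CPM in WT and between 82020 and 118907 CPM in B3AR-Tg. Mouse Adrb3 itself was at 0 to 4 counts in WT and 0 to 3 in B3AR-Tg, too few to be tested. Markers of other cell types were present too, with lower summed levels of endothelial and fibroblast markers in most B3AR-Tg animals. The 12 endothelial markers summed to between 97.5 and 146 CPM in WT, with a median of 117 CPM, and to between 45.7 and 146 CPM in B3AR-Tg, with a median of 72.9 CPM. The 8 fibroblast markers summed to between 33.4 and 96.3 CPM in WT and between 10.2 and 44.7 CPM in B3AR-Tg. No endothelial or fibroblast marker was at 0 in all libraries. The 7 mural markers summed to between 363 and 553 CPM in WT and between 499 and 655 CPM in B3AR-Tg. That sum was mostly Abcc9, which rose (334.5 to 455.2 CPM on average, edgeR adjusted p = 0.0132), while 5 of the 7 mural markers had a lower fitted level and their median log2 fold change was −0.34. The sum thus follows Abcc9 and is no measure of mural cell content. The 9 leukocyte markers summed to between 4.27 and 14.8 CPM in WT and between 0.795 and 6.54 CPM in B3AR-Tg, with Cd3e at 0 in every library.

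Of the 10 genes, 2 differed between genotypes. Hif1a mRNA was lower in B3AR-Tg and Egln1 mRNA was higher, so the best known oxygen-regulated subunit and the main hydroxylase acting on it moved in opposite directions. The fit of edgeR's quasi-likelihood test covered 10945 genes, of which 4.91% passed at a Benjamini-Hochberg adjusted p under 0.05 (2.88% lower and 2.03% higher in B3AR-Tg). The median log2 fold change over these genes was 0.01, and that of the 9 members tested was −0.01. Hif3a had too few counts to be tested. For none of the 9 were the groups fully apart in CPM, a pattern seen in 0.448% of tested genes.

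The promoters of both genes that differed are shown because Egln1 is itself a known HIF target, and HIF factors act through hypoxia response elements. Each sequence is the 250 bases before the RefSeq start of transcription, written from 5′ to 3′ on the strand of the gene, with coordinates on GRCm38.p6. The submitters' processing notes name GRCm39, so these positions do not carry over to their files. Capitals mark the element's core, searched as ACGTG and GCGTG on both strands. Each match was counted, overlapping ones included.

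Hif1a (chr12:73907617-73907866, plus strand): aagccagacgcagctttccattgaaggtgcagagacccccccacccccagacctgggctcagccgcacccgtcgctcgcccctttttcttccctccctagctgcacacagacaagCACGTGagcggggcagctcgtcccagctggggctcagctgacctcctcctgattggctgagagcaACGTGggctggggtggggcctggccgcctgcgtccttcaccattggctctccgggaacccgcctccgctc

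Egln1 (chr8:124949255-124949504, minus strand): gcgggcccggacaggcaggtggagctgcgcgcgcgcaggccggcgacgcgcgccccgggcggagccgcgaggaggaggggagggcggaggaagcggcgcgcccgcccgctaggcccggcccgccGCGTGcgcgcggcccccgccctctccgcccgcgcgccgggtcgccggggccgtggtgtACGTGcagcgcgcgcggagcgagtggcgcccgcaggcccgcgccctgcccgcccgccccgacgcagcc

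The Hif1a window held 3 cores, of which a pair overlaps in a single palindrome that begins at −135 from the start, and the other begins at −70. The Egln1 window held 2, beginning at −126 and −68, in a stretch with 86% G and C. Matches of this length are common: 62.8% of the 8586 tested genes with a RefSeq window held at least 1 core. All 8 members with a window did in at least 1 window (Hif1a, Hif3a, Arnt, Egln1, Egln2, Egln3, Vegfa and Vegfb). For Vegfa, on the minus strand, the window of the more upstream start (chr17:46032378-46032627) held 0. Its cores lay only in the window of a more downstream start (chr17:46025164-46025413). Epas1 and Fgf1 had no entry in the table. A match describes the letters and shows no binding.

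Hif1a (ENSMUSG00000021109) encodes the alpha subunit that is present in nearly all cell types. In WT animals its level ran from 115 to 252 CPM with a median of 153 CPM, and in B3AR-Tg from 102 to 139 CPM with a median of 111 CPM. All 8 B3AR-Tg animals were below the WT median, 6 of them below every WT animal, and the B3AR-Tg values were also closer together. Means were 165 ± 44.5 CPM for WT against 113 ± 11.8 CPM for B3AR-Tg. Hif1a thus fell to 0.686 of the WT level (log2 fold change −0.54, standard error 0.13, edgeR adjusted p = 0.0199). WT replicate 8 had the highest level, and without it the log2 fold change was −0.43 (edgeR adjusted p = 0.0322). The call held without each of the 16 animals in turn. It was lost with scaling by library size alone (−0.47, edgeR adjusted p = 0.0666).

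Genes of other cells and of cardiac load differed between genotypes beside Hif1a. Of the 12 endothelial markers 12 had a lower fitted level and 3 passed the test (Pecam1, Emcn and Esam), and of the 6 tested fibroblast markers 6 did and 3 passed (Col1a2, Col1a1 and Dcn). Over all tested genes 2.88% passed with a lower level. The calls of Pecam1 and the fibroblast genes held without each animal in turn. Emcn held only without B3AR-Tg replicate 4 or WT replicate 1, 3, 6 or 7 (edgeR adjusted p up to 0.0850 otherwise), and Esam was lost without B3AR-Tg replicate 2, 5 or 8 or WT replicate 1, 2, 4 or 6 (up to 0.0885). Of the 5 load markers 5 fell, among them Nppa, which encodes atrial natriuretic peptide (log2 fold change −3.99), and Myh7, the slow myosin heavy chain (−2.03). With the endothelial and fibroblast marker level as a covariate, the Hif1a log2 fold change was −0.29 (edgeR adjusted p = 0.617) and 2 genes in all passed. With the load marker level as a covariate, added after the data were seen, it was −0.18 (edgeR adjusted p = 0.844) and 7 genes in all passed. Each covariate differs with genotype itself, so its part and that of genotype cannot be told apart in these fits. The cause of the smaller Hif1a values was not tested. In bulk RNA, fewer cells of a type and less RNA per cell cannot be told apart.

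Epas1 (ENSMUSG00000024140), which encodes the HIF-2 alpha subunit and is rich in endothelial cells, did not pass the test. WT animals ran from 36.1 to 84.6 CPM with a median of 53.2 CPM, and B3AR-Tg animals from 43.2 to 79.9 CPM with a median of 66.1 CPM. Every B3AR-Tg value lay within the WT range. The log2 fold change was 0.17 (95% interval −0.11 to 0.45, edgeR adjusted p = 0.543). The log2 ratio of Hif1a to Epas1 within each animal, which does not depend on library scaling apart from the pseudocount of 0.1 CPM, averaged 1.54 ± 0.678 for WT and 0.850 ± 0.262 for B3AR-Tg. All 8 B3AR-Tg animals had a ratio below the WT median, and the difference of −0.69 had an exact permutation p = 0.0134, or 0.0535 after Benjamini-Hochberg adjustment over the 4 ratios compared (two-sided). It therefore missed the threshold. Without WT replicate 3, the WT animal with the highest Epas1, the difference in the log2 ratio Hif1a/Epas1 was −0.83 (adjusted exact permutation p = 0.00249), and it also passed without WT replicate 6 (−0.74, adjusted exact permutation p = 0.0497) or B3AR-Tg replicate 3 (−0.74, adjusted exact permutation p = 0.0479).

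**Figure D1:**
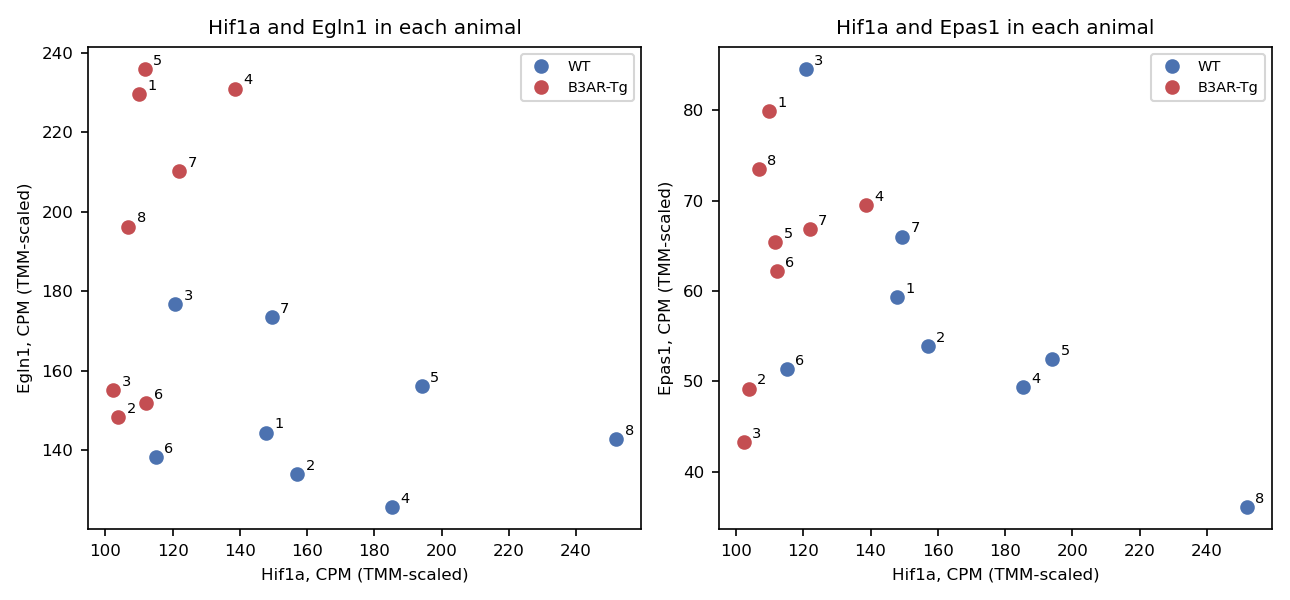
Hif1a level (horizontal axis, CPM) against Egln1 (left) and Epas1 (right, vertical axes, CPM) in each animal, with the replicate number beside each point (blue WT, red B3AR-Tg). All B3AR-Tg points lie at or below 139 CPM of Hif1a while WT points reach 252 CPM, and in the left panel 5 of the 8 B3AR-Tg animals stand above every WT animal in Egln1.

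Hif3a (ENSMUSG00000004328), a HIF alpha gene whose short products can restrain the other subunits, was barely present. WT libraries held 0 to 8 counts, 30 in all, and B3AR-Tg libraries 0 to 9 counts, 33 in all. The mean levels, 0.416 ± 0.358 CPM for WT and 0.361 ± 0.189 CPM for B3AR-Tg, lay near the floor, so a difference was not detectable at this depth. The ratio of Hif1a to Hif3a rests on these few counts and did not pass (exact permutation p = 0.390, adjusted 0.520).

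Arnt (ENSMUSG00000015522) encodes the partner that all HIF alpha subunits need for DNA binding. It ran from 7.17 to 19.5 CPM with a median of 12.8 CPM in WT and from 9.71 to 19.9 CPM with a median of 16.4 CPM in B3AR-Tg. The groups overlapped almost fully, with 7 of 8 B3AR-Tg animals inside the WT range. Arnt had a log2 fold change of 0.26 (95% interval −0.10 to 0.62, edgeR adjusted p = 0.471).

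Egln1 (ENSMUSG00000031987) encodes PHD2, the hydroxylase held to set HIF-1 alpha levels in oxygenated tissue. WT animals ran from 126 to 177 CPM with a median of 144 CPM, and B3AR-Tg animals from 148 to 236 CPM with a median of 203 CPM. All 8 B3AR-Tg animals exceeded the WT median and 5 exceeded every WT animal, while replicates 2, 3 and 6 of B3AR-Tg stayed inside the WT range. From a mean of 149 ± 18.4 CPM, Egln1 rose to 195 ± 37.8 CPM, or 1.31 times the WT level (log2 fold change 0.39, standard error 0.11, edgeR adjusted p = 0.0477). The call lay close to the threshold. It held only without B3AR-Tg replicate 2, 3 or 6 or WT replicate 3 or 7, and was lost without any 1 of the other 11 animals (log2 fold changes from 0.35 to 0.40, edgeR adjusted p up to 0.111). It was also lost with upper-quartile scaling (0.38, edgeR adjusted p = 0.0551) and with a stricter filter on low counts (0.38, edgeR adjusted p = 0.0548). Against the marker level of other cells the log2 fold change was 0.53 (edgeR adjusted p = 0.312), and against the load marker level it was 0.16 (edgeR adjusted p = 0.841). These marker levels differ with genotype themselves, and the cause of the lost Egln1 call was not tested.

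Egln3 (ENSMUSG00000035105), which encodes the strongly hypoxia-inducible hydroxylase PHD3, had a fold change of similar size but did not pass. WT animals ran from 24.4 to 48.3 CPM with a median of 32.4 CPM and B3AR-Tg animals from 27.8 to 65.5 CPM with a median of 44.4 CPM. B3AR-Tg values exceeded the WT median in 7 of 8 animals and the whole WT range in 2. Its log2 fold change was 0.37 (95% interval 0.07 to 0.67, unadjusted p = 0.0248, edgeR adjusted p = 0.181). Across all tested genes 19.3% had an unadjusted p under 0.05. The log2 ratio of Egln3 to Egln1 averaged −2.16 ± 0.284 for WT and −2.18 ± 0.271 for B3AR-Tg, a difference that did not pass (exact permutation p = 0.882, adjusted 0.882).

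Egln2 (ENSMUSG00000058709) encodes PHD1, a hydroxylase that is not induced by hypoxia. Its level was 18 ± 4.32 CPM in WT, from 11.6 to 24.6 CPM, and 17.4 ± 3.67 CPM in B3AR-Tg, from 14.4 to 25.7 CPM. Egln2 had a log2 fold change of −0.05 (95% interval −0.34 to 0.24, edgeR adjusted p = 0.888). Its sign turned with scaling by library size (0.0114), with the load covariate and without WT replicate 2.

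**Figure D2:**
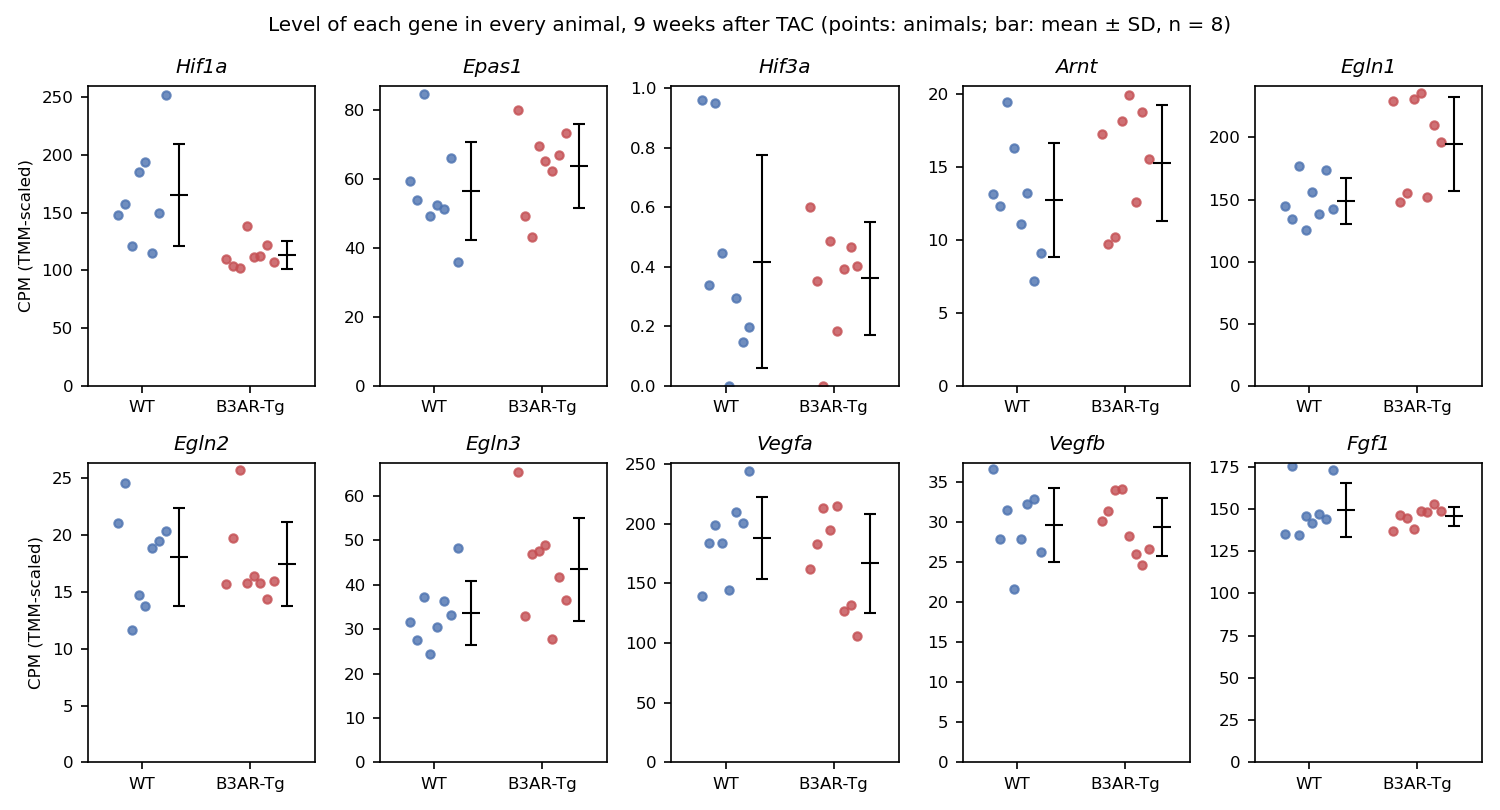
CPM (TMM-scaled, linear axes from 0) of each of the 10 genes in every animal (points; blue WT, red B3AR-Tg), with the mean ± SD of 8 animals as a black bar. Hif1a sits lower and tighter in B3AR-Tg (102 to 139 CPM) than in WT (115 to 252 CPM), Egln1 sits higher (148 to 236 against 126 to 177 CPM), and the other panels overlap widely.

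The growth factors showed no called difference. Vegfa (ENSMUSG00000023951) encodes the main angiogenic VEGF, a classical HIF target. It ran from 139 to 244 CPM with a median of 191 CPM in WT and from 106 to 215 CPM with a median of 172 CPM in B3AR-Tg. Replicates 6, 7 and 8 of B3AR-Tg were below every WT animal while the other 5 lay inside the WT range. For Vegfa the log2 fold change was −0.18 (95% interval −0.46 to 0.10, edgeR adjusted p = 0.533).

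Vegfb (ENSMUSG00000024962), whose product binds FLT1 and is linked to coronary growth and fatty acid handling, averaged 29.6 ± 4.67 CPM for WT and 29.4 ± 3.61 CPM for B3AR-Tg. WT animals ran from 21.6 to 36.7 CPM and B3AR-Tg animals from 24.6 to 34.1 CPM. Vegfb had a log2 fold change of −0.01 (95% interval −0.21 to 0.19, edgeR adjusted p = 0.972), with a sign that turned under library-size scaling and without a filter on low counts. The log2 ratio of Vegfa to Vegfb averaged 2.66 ± 0.399 for WT and 2.47 ± 0.270 for B3AR-Tg (exact permutation p = 0.282, adjusted 0.520).

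Fgf1 (ENSMUSG00000036585), which encodes acidic fibroblast growth factor, had the narrowest interval of the members. It ran from 134 to 175 CPM with a median of 145 CPM in WT and from 137 to 153 CPM with a median of 147 CPM in B3AR-Tg, all 8 of which lay inside the WT range. The spread was smaller in B3AR-Tg (5.56 CPM) than in WT (16 CPM). Fgf1 had a log2 fold change of −0.04 (95% interval −0.18 to 0.10, edgeR adjusted p = 0.811), and it was 0.0329 with scaling by library size.

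Per kilobase of merged exon, which allows genes to be compared, Vegfa stood highest in WT at 53.4 ± 9.71 CPM per kb. Egln1 followed at 41.4 ± 5.12, Hif1a at 30.3 ± 8.17, Fgf1 at 28.9 ± 3.08 and Vegfb at 23.1 ± 3.64 CPM per kb. Egln3 (12.6 ± 2.74), Epas1 (10.3 ± 2.57), Egln2 (8.18 ± 1.96), Arnt (2.64 ± 0.803) and Hif3a (0.0640 ± 0.0550 CPM per kb) came after them. Most neighbours in this order overlapped in their ranges, and Hif1a exceeded Fgf1 in only 4 of 8 WT animals. The steps from Egln2 to Arnt and from Arnt to Hif3a were clear in all 8 animals. In B3AR-Tg, Egln1 stood first at 54.2 ± 10.5 CPM per kb, above Vegfa (47.3 ± 11.7) in 6 of 8 animals, and Hif1a dropped to the fifth place at 20.8 ± 2.17 CPM per kb, below Fgf1 (28.1 ± 1.07) and Vegfb (23.0 ± 2.82). The order at the top depends on the length used, since with the median length of the coding transcripts the WT levels were 165 CPM per kb for Vegfa and 154 CPM per kb for Fgf1.

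**Figure D3:**
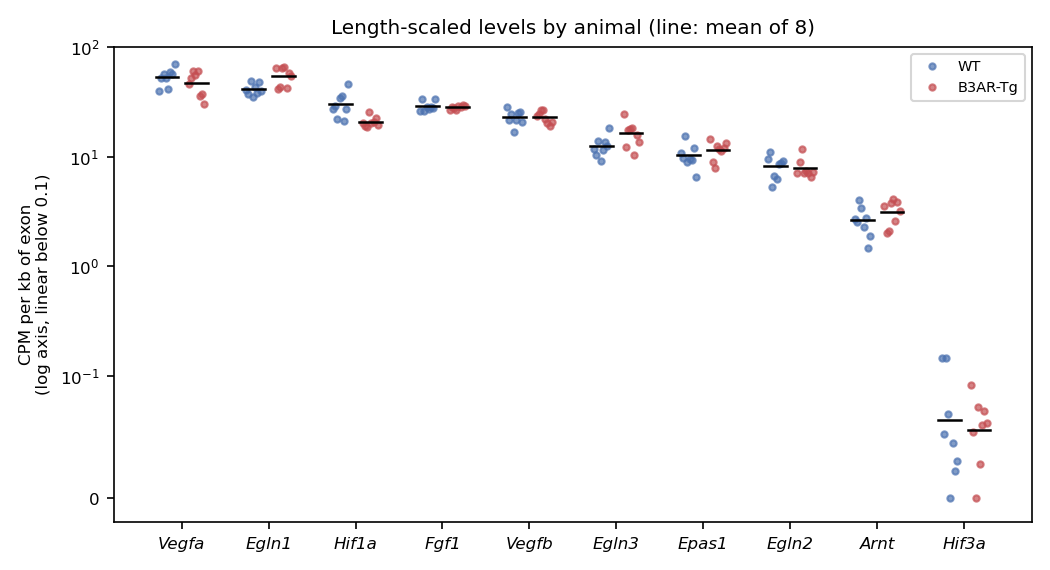
CPM per kb of merged exon for the 10 genes in every animal (vertical log axis, linear below 0.1; blue WT, red B3AR-Tg; line, mean of 8), ordered by the WT mean. Levels span from 53.4 CPM per kb for Vegfa to 0.0640 for Hif3a in WT, and Egln1 is the first gene of the order in B3AR-Tg.

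Several members shared overlapping annotation, and neither the strand setting nor the handling of shared reads was given in the sources used here. By GENCODE M21, Hif1a overlaps the antisense gene Gm15283, not analysed here, and the same-strand gene Gm49321, which held 15 counts over all libraries. Arnt overlaps the pseudogene Gm42672 (24 counts), and Fgf1 overlaps an opposite-strand gene model named Arhgap26 (26 counts). These totals were small beside the 12025 counts of Hif1a, 919 of Arnt and 10789 of Fgf1 over the 8 WT libraries alone.

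Animals of a genotype were compared with each other next, within WT and within B3AR-Tg separately. Over the 36 pairs of tested members in each genotype, 72 relations in all, 0 passed an exact permutation test of Pearson's r after Benjamini-Hochberg adjustment, and 9 had an unadjusted p under 0.05. The closest pair was Arnt and Egln1 in B3AR-Tg (r = 0.944, exact permutation p = 0.00179, adjusted 0.129; Spearman's rho = 0.905, exact permutation p = 0.00456, adjusted 0.329; n = 8), with r = 0.934 without the 2 animals farthest from the median of Arnt. The same 3 animals, B3AR-Tg replicates 2, 3 and 6, had the lowest levels of both genes in their group. In WT the pair had r = −0.19 (rho = −0.17, exact permutation p = 0.648 and 0.703). Hif1a and Epas1 ran opposite in WT (r = −0.75, exact permutation p = 0.0321, adjusted 0.373; rho = −0.57, exact permutation p = 0.151, adjusted 0.573; n = 8; r = −0.92 without the 2 farthest animals), and had r = 0.472 in B3AR-Tg (rho = 0.405, exact permutation p = 0.231 and 0.327). The difference between genotypes in these relations was not tested.

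Of the 54 relations of members to marker levels, 0 passed after adjustment and 4 had an unadjusted exact permutation p under 0.05. Hif1a against the endothelial marker level had r = 0.225 in WT (rho = 0.310, exact permutation p = 0.588 and 0.462, n = 8). Without WT replicates 5 and 1 Hif1a had r = 0.696 there. In B3AR-Tg it had r = 0.834 (exact permutation p = 0.0138, adjusted 0.602; rho = 0.667, exact permutation p = 0.0831, adjusted 0.561; n = 8), which dropped to r = 0.374 without B3AR-Tg replicates 4 and 2 and so rests on those animals. Against the load marker level Hif1a had r = 0.630 in WT (rho = 0.571, exact permutation p = 0.0961 and 0.151, adjusted 0.649 and 0.628) and r = 0.00528 in B3AR-Tg (rho = −0.21, exact permutation p = 0.989 and 0.619). Without the 2 farthest animals r was 0.817 in WT. In B3AR-Tg it was −0.75 without replicates 7 and 8, so the value near 0 rests on those animals. Egln1 against the load marker level had r = −0.67 in WT (rho = −0.71, exact permutation p = 0.0745 and 0.0576, adjusted 0.649 and 0.561), where r was −0.36 without the 2 farthest animals, and r = −0.19 in B3AR-Tg (rho = −0.36, exact permutation p = 0.671 and 0.389, adjusted 0.953 and 0.804). Without B3AR-Tg replicates 7 and 8 the latter r was −0.69. The other 3 relations with an unadjusted p under 0.05 were all in WT. Fgf1 had r = 0.788 with the endothelial level (rho = 0.833, exact permutation p = 0.0262 and 0.0154, adjusted 0.602 and 0.415; r = 0.899 without the 2 farthest animals) and r = 0.732 with the load level (rho = 0.643, exact permutation p = 0.0446 and 0.0962, adjusted 0.602 and 0.564; r = 0.769 without the 2 farthest animals). Vegfa had r = 0.737 with the endothelial level (rho = 0.500, exact permutation p = 0.0357 and 0.216, adjusted 0.602 and 0.730), which rests on WT replicates 5 and 1, since r was −0.0554 without them.

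The genes most like the changed members, after each genotype's mean was removed from log2 CPM, were found over all 16 animals. For Hif1a they were Aldh18a1 (Pearson r = 0.878), Tnpo2 (0.871), Lrrfip1 (0.855), Psmb10 (0.818) and Prr13 (0.814), none of which passed the test between genotypes. For Egln1 they were Pitpnm2 (0.907), Ctdnep1 (0.896), Slc12a7 (0.861), Gfpt1 (0.855) and Kcnk3 (0.845). Kcnk3, which encodes the potassium channel TASK-1, was the only called gene among these 10 (log2 fold change 0.45, edgeR adjusted p = 0.0404). Its call held only without B3AR-Tg replicate 2, 3 or 6 or WT replicate 3 or 5 (edgeR adjusted p up to 0.0942 otherwise). These genes were picked for their likeness out of all tested genes, so r is a description without a test. When any 1 animal was left out, between 2 and 5 of each list's 5 genes stayed among the 5 most alike.

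Genes that HIF factors are known to drive were lower more often than higher. Of 47 in the list, 42 were tested, 31 with a lower and 11 with a higher fitted level. At an adjusted p under 0.05, 5 fell (11.9%, against 2.88% of all tested genes) and 0 rose (against 2.03%). An unadjusted p under 0.05 was found for 14 of the 42, against 19.3% of all tested genes. The list was chosen with earlier results of these data known and was not tested as a set. The median log2 fold change of the tested genes was −0.15, against 0.01 over all genes. Ndrg1, a stress-responsive gene used as a marker of hypoxia, fell from 11.4 ± 4.81 to 4.91 ± 1.12 CPM (log2 fold change −1.23, edgeR adjusted p = 0.00447), and every B3AR-Tg animal was below every WT animal. Pfkp, the platelet isoform of phosphofructokinase, fell from 74.4 ± 33 to 34.9 ± 9.08 CPM (−1.09, edgeR adjusted p = 0.00668). Adm, which encodes the vasodilator peptide adrenomedullin, fell from 3.52 ± 2.27 to 1.25 ± 0.637 CPM (−1.47, edgeR adjusted p = 0.0249). Ppp1r3c, a glycogen-targeting subunit of protein phosphatase, fell from 294 ± 107 to 184 ± 29.3 CPM (−0.67, edgeR adjusted p = 0.0242), and Ero1a, an oxidase of protein folding, from 24.4 ± 8.36 to 16.2 ± 2.56 CPM (−0.60, edgeR adjusted p = 0.0340). In Ppp1r3c and Ero1a 7 of 8 B3AR-Tg animals were below all WT animals.

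Among the other HIF targets of glucose use, several did not pass. Ldha averaged 419 ± 57.4 CPM for WT and 427 ± 30.3 CPM for B3AR-Tg, Pgk1 362 ± 63.3 and 323 ± 33.2 CPM, and Pdk1, a kinase that restrains pyruvate dehydrogenase, 336 ± 35.3 and 317 ± 17.9 CPM, with edgeR adjusted p-values of 0.897, 0.387 and 0.550. Pgam1, a mutase of glycolysis, had a log2 fold change of −0.51 (unadjusted p = 0.0172, edgeR adjusted p = 0.149). Slc2a1, which encodes the glucose transporter GLUT1, had a log2 fold change of −0.10 (edgeR adjusted p = 0.767). Outside glucose use, Hmox1, the heme oxygenase gene, went the other way, from 9.43 ± 6 to 20.4 ± 11.2 CPM, and did not pass (1.13, edgeR adjusted p = 0.0594). Trf, also outside glucose use, had a lower fitted level and did not pass (−1.68, edgeR adjusted p = 0.0551). These genes, and the regulators and Thbs1 named below, were chosen after their values were seen. Of the 5 calls, Ndrg1 and Pfkp held without each animal in turn. Ppp1r3c, Ero1a and Adm lost theirs without B3AR-Tg replicate 5 or 8 or WT replicate 4, Ero1a and Adm also without B3AR-Tg replicate 2, Ero1a without B3AR-Tg replicate 6, and Adm without WT replicate 6 or 8, with edgeR adjusted p-values up to 0.0775. With the endothelial and fibroblast marker level or the load marker level as a covariate, 0 of the HIF targets passed. Nearly all calls among all tested genes were lost there too. Both covariates differ with genotype themselves, and the cause of the lost calls was not tested.

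The machinery around the alpha subunits showed no called gene. Of 15 regulators 14 were tested by edgeR, 11 with a higher and 3 with a lower fitted level, and 0 passed (0 also by DESeq2 and by voom), while P4htm, Cited2 and Usp20 had an unadjusted p under 0.05. Over all tested genes the edgeR shares were 4.91% called and 19.3% with an unadjusted p under 0.05. With 14 genes, 0 calls do not set this list apart from all genes. The median log2 fold change was 0.16. Vhl, the recognition subunit for hydroxylated HIF, averaged 4.47 ± 1.47 CPM for WT and 5.09 ± 1.14 CPM for B3AR-Tg (edgeR adjusted p = 0.650). Hif1an, the asparagine hydroxylase that blocks HIF coactivator binding, had a log2 fold change of 0.13 (edgeR adjusted p = 0.742), and Cited2, a competitor for the same coactivators, one of 0.43 (edgeR adjusted p = 0.203).

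On the receiving side, Flt1, which encodes VEGF receptor 1 and binds both VEGF-A and VEGF-B, fell from 26.4 ± 7.06 to 16.3 ± 4.31 CPM (log2 fold change −0.70, edgeR adjusted p = 0.0249). It was the only call among the 6 tested genes of VEGF receptors and other VEGF ligands (16.7%, against 4.91% of all tested genes), of which 5 had a lower fitted level. An unadjusted p under 0.05 was found for 3 of the 6, against 19.3% of all tested genes. Beside Flt1 these were Flt4 (−0.66, edgeR adjusted p = 0.133) and Nrp2 (−0.54, edgeR adjusted p = 0.134), named after their values were seen. Kdr, which encodes the main signalling receptor for VEGF-A, averaged 22.3 ± 9.16 CPM for WT and 20.2 ± 10.1 CPM for B3AR-Tg (edgeR adjusted p = 0.816). Nrp1, the co-receptor neuropilin 1, had a log2 fold change of −0.16 (edgeR adjusted p = 0.605). Receptors of this kind are found mostly on endothelial cells. The 12 endothelial markers had a median log2 fold change of −0.61. With the endothelial and fibroblast marker level as a covariate the Flt1 log2 fold change was −0.10 (edgeR adjusted p = 0.916), and that of Kdr was 0.50 (edgeR adjusted p = 0.672). With the load marker level as a covariate the Flt1 log2 fold change was −0.47 (edgeR adjusted p = 0.665). Both covariates differ with genotype themselves, and the cause of the Flt1 difference was not tested. Flt1 lost its call without B3AR-Tg replicate 5 or 8 or WT replicate 1, 2 or 4 (edgeR adjusted p up to 0.0608).

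Among the 10 tested genes of the FGF family and its receptors, 5 had a higher and 5 a lower fitted level, with a median log2 fold change of 0.03. Fgfrl1, an FGF receptor without a kinase domain, fell from 12.2 ± 1.73 to 8.89 ± 1.09 CPM (−0.46, edgeR adjusted p = 0.0229), a call lost without WT replicate 4 (edgeR adjusted p = 0.0529). It was the only edgeR call of the list (10%, against 4.91% of all tested genes), while DESeq2 called 2 and voom 3. Fgfr1, which binds FGF1, was at 3.68 ± 0.990 and 3.43 ± 0.972 CPM (edgeR adjusted p = 0.840). Of 8 tested genes among other angiogenic factors edgeR called 0 (DESeq2 called 0 and voom 1), and 1 had an unadjusted p under 0.05, Thbs1, an inhibitor of angiogenesis (log2 fold change −1.32, edgeR adjusted p = 0.0891). Over all tested genes these edgeR shares were 4.91% and 19.3%.

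**Figure D4:**
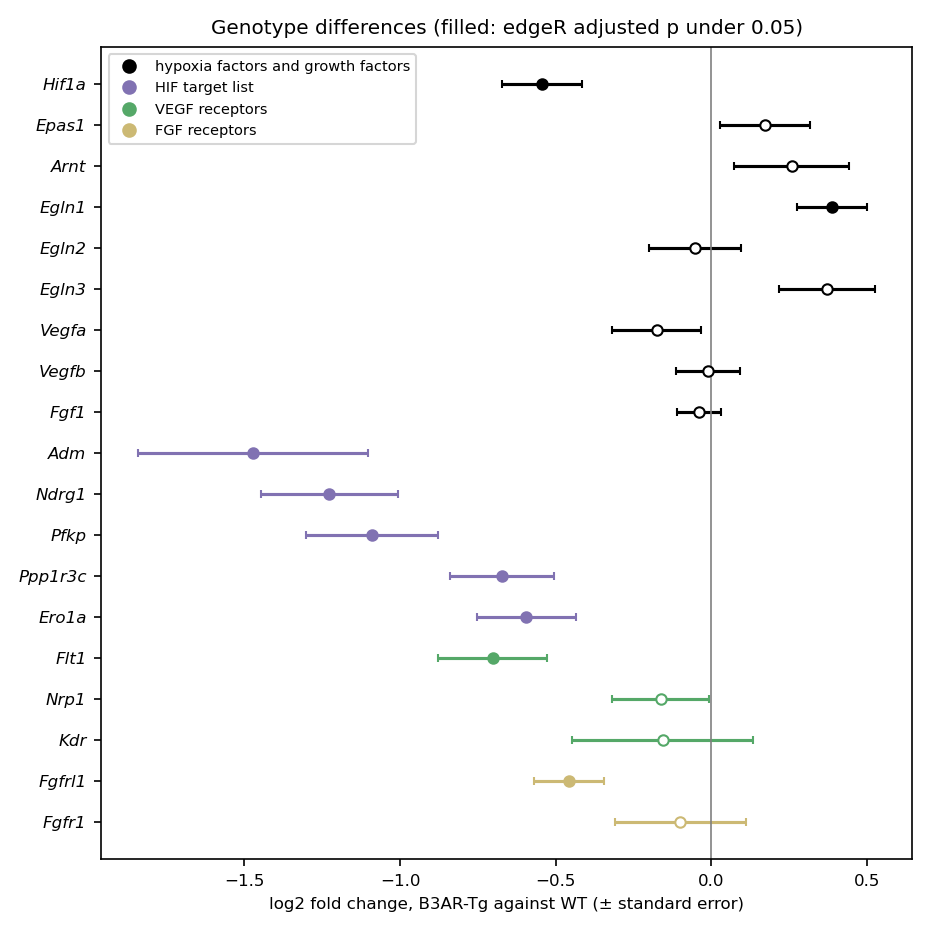
Log2 fold change of B3AR-Tg against WT (horizontal axis, ± standard error) for the 9 tested members (black), the called genes of the HIF target list (purple), and receptors of VEGF (green) and FGF (yellow); filled points have an edgeR adjusted p under 0.05. Hif1a (−0.54) and Egln1 (0.39) are the filled black points, and the called HIF targets and receptors all lie to the left of 0, from −1.47 for Adm to −0.46 for Fgfrl1.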

How the data were processed

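RNA from ventricular myocytes of 16 mice was sequenced, per the labels' protocols, as stranded total RNA libraries from 500 ng after ribosomal depletion. The authors deposited whole-number counts per gene, 1 column per animal, without normalization. The submitters' processing notes name Salmon and GRCm39 without a role, so the counts may be rounded estimates; annotation and strand setting are not given in the sources used here. Groups and replicate numbers come from the sample titles. All columns matched a title. Counts per library are given in the report; CPM was computed from them here.

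Genes passing filterByExpr (minimum count 10, minimum total 15) were compared with edgeR 4.0.16 (R 4.3.3; TMM factors, genotype only, quasi-likelihood F test), with p-values adjusted over all 10945 genes at a threshold of 0.05. Standard errors were taken from the F statistic. The 95% intervals are the log2 fold change ± 1.96 standard errors, a normal quantile, and so are somewhat narrower than the F test implies. Ratios (pseudocount 0.1 CPM) and correlations (log2 CPM, prior count 2) were tested by exact permutation. Within a genotype, the 56 pairs of libraries differed beyond sampling noise (chi-square per gene from 5.82 to 52.8), so none was a duplicate deposit within that noise. That libraries are biological replicates rests on the sample titles. The edgeR fit was also run on counts simulated from the means and dispersions of these data, after the fits reported here. Lengths and overlaps come from GENCODE M21 and promoters from RefSeq on GRCm38.p6.

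Alternatives covered scaling, the filter, DESeq2 1.42.0, limma 3.58.1 voom with sample weights, the replicate number as a block, covariates, the threshold and each animal left out. The load covariate and the median transcript length were added after seeing the data. The members and gene lists were chosen with earlier results of these data known. Named genes are all members, up to 6 called genes per list with the smallest p-values, the 5 genes most like each called member, and Flt1, Kdr, Nrp1, Fgfr1, Nppa and Myh7. Others are marked as chosen after their values were seen. Protein sequences were not used here.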

Additional observations from a re-analysis of the deposited data

Results flagged for a closer look

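In each group of 8 animals, the highest and lowest values were checked for a gap to the nearest animal that took a larger share of the group's range than Dixon's 95% critical value allows. Of 28 groups searched (10 genes and 4 ratios in each genotype) 1 had such an animal, where chance would give 1.4. Hif3a in B3AR-Tg replicate 3 stood at 0 CPM while the remaining B3AR-Tg animals ran from 0.184 to 0.602 CPM, and on the scale of log2(CPM + 0.1) the gap took 0.535 of the range. That library held 0 counts of Hif3a, which allows a level of up to 0.313 CPM.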

How the results depend on the processing

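With the replicate number as a block, 230 genes passed in all, 1 member (Hif1a, −0.51, edgeR adjusted p = 0.0464; Egln1 was at 0.37, edgeR adjusted p = 0.105), 2 HIF targets, 0 HIF regulators and 1 VEGF or FGF gene. The numbers belong to different animals and pair nothing: deviations of same-numbered animals correlated between −0.22 and 0.0935, and 0 of 8 animals correlated best with its own number. With the blocked sign-flip permutation the difference in the log2 ratio of Hif1a to Epas1 missed the threshold. Its size, −0.69, equals the value without the block by construction.

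The genes called numbered 537 in all, 2 members, 5 HIF targets, 0 regulators and 2 VEGF or FGF genes. In the same order the counts were 2, 0, 0, 0 and 0 with the marker covariate, 7, 0, 0, 0 and 0 with the load covariate, and 109, 0, 2, 0 and 0 at a threshold of 0.01. At 0.1, 908 genes passed, 4 of them VEGF or FGF genes. Members called were 1 with library-size scaling, upper-quartile scaling or the stricter filter. VEGF or FGF genes called were 1 with library-size scaling or without a filter and 4 with voom. Leaving out each animal gave 272 to 675 genes (272 without WT replicate 4, 277 without B3AR-Tg replicate 5 and 345 without B3AR-Tg replicate 8), 1 to 2 members, 2 to 6 HIF targets (3 without B3AR-Tg replicate 2, and 2 without B3AR-Tg replicate 5 or 8 or WT replicate 4) and 0 to 4 VEGF or FGF genes (0 without WT replicate 4, 4 without WT replicate 3, and 1 without B3AR-Tg replicate 5 or 8 or WT replicate 1 or 2). The ratio differences then ran from −0.83 to −0.51 for Hif1a to Epas1 and from −0.0841 to 0.0672 for Egln3 to Egln1, the latter turning sign.

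Signs also turned for values near 0. With library-size scaling Egln2 was at 0.0114, Vegfb at 0.0710 and Fgf1 at 0.0329. Without a filter Vegfb was at 0.00726. With the marker covariate Fgf1 was at 0.0346 and Kdr at 0.50. With the load covariate Epas1 was at −0.22, Egln2 at 0.29, Fgf1 at 0.15, Fgfr1 at 0.27, Pfkp at 2.46e-05, Myh7 at 0.26 and Ankrd1 at 0.31. Myh7 and Ankrd1 are themselves among the load markers averaged into that covariate. Their values there follow in part from its construction and carry no separate information. With 1 animal left out Egln2 ran from −0.15 to 0.0308, Vegfb from −0.0675 to 0.0397 and Fgf1 from −0.0592 to 0.000674. Both covariates differ with genotype themselves, and the cause of each change was not tested. Depth limits Hif3a most.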
